A study of Mus musculus with 12 samples.

Results

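The genes described here are the 44 mouse genes whose symbol has the form of a collagen alpha chain (Col, a type number, the letter a and a chain number), out of 27978 genes measured in hippocampal tissue. Collagens are matrix proteins built from 3 alpha chains wound into a triple helix. The chains are made and modified in the endoplasmic reticulum, and most are secreted and then assembled into fibrils, sheets or filaments. In the brain the neuropil holds little fibrillar collagen, and most collagen lies in the meninges, in the basement membranes of vessels and in the choroid plexus, with a few chains made by neurons. By family, 11 of the genes encode fibrillar collagens, 9 basement membrane and vessel-associated collagens, 9 fibril-associated collagens with interrupted helices (FACITs), 6 beaded filament collagens, 4 transmembrane collagens, 3 short chain collagens and 2 other collagens.

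Total RNA was sequenced in 12 libraries from mice that had received a fecal microbiota transplant, 4 libraries in each of 3 groups named FMT-SP, FMT-DSS and FMT-CON. FMT-SP is called FMT-DSS+SP in the design text, and the title of the series names substance P, a neuropeptide. The labels do not say what DSS and CON stand for, where or when SP was given, nor the strain, age or sex of the mice. Whether the libraries come from separate animals is not stated either, and p-values measure only how these libraries vary. Levels are FPKM (fragments per kilobase of transcript and 1000000 mapped fragments) as the authors deposited them, and the depth estimated from the steps between low values was 31.5 to 37.1 M per library, where M is 1000000 fragments. Where 4 values are listed for a group, they are those of libraries 1 to 4 in that order, and group means are given ± SD with n = 4 libraries each. Tissue markers set several libraries apart before any comparison of groups. Markers of hippocampal neurons were present in every library, with a summed level of 247 to 379 FPKM over 12 genes. The 3 libraries numbered 4, 1 in each group, held 24% to 29% of their summed FPKM in genes of the mitochondrial genome, and the other 9 held 15.9% to 20.3%. The choroid plexus gene Ttr was at 14.7 to 83.5 FPKM in FMT-SP 1, FMT-SP 4, FMT-CON 3 and FMT-CON 4, and at 1290 to 3779 FPKM in the other 8. The pituitary gene Gh reached 2899 FPKM in FMT-CON 3, and striatal markers summed to 418 FPKM in FMT-DSS 3, against 69.5 to 209 FPKM in the others.

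Sequences from the starts of 6 collagen genes are printed here because their levels carry the main patterns between libraries. Of the 44 genes, 35 matched an entry in the RefSeq promoter table of build GRCm38.p6. Col6a1 and Col5a1 had the largest excess in the libraries numbered 4 among the collagens tested below, and Col8a1 and Col8a2 were lowest in the libraries with little Ttr. For these 4 genes the 250 bases before the gene start are given 5′ to 3′ on the strand of the gene. Capitals mark the GC box letters GGGCGG on either strand, where the other strand reads CCGCCC.
Col6a1, chr10:76726045-76726294, minus strand: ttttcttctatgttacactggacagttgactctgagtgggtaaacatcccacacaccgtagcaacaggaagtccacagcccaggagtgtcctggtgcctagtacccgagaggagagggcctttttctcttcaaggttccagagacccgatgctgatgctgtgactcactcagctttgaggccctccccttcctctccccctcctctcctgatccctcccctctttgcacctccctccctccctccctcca
Col5a1, chr2:27886175-27886424, plus strand: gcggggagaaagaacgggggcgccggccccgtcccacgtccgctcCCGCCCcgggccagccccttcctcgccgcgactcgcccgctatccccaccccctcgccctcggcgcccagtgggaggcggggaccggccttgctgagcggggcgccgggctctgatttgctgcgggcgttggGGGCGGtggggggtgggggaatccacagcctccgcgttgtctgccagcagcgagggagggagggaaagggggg
Col8a1, chr16:57754738-57754987, minus strand: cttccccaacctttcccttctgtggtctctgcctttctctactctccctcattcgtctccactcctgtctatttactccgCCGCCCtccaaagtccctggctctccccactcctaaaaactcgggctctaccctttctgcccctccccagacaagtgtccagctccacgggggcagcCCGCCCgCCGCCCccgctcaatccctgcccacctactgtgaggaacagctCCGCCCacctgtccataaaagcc
Col8a2, chr4:126286544-126286793, plus strand: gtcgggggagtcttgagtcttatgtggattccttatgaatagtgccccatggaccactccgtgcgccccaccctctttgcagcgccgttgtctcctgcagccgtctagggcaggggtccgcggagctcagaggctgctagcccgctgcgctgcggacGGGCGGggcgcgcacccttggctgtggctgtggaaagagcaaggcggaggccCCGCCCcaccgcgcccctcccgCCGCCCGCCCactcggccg
Col4a1 and Col4a2 lie head to head on chromosome 8, and their first exons overlap in 22 bases.
Overlap of Col4a1 and Col4a2, chr8:11312805-11312826, given on the plus strand of Col4a2: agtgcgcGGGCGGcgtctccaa
The GC box letters occurred 0 times in the Col6a1 stretch, 2 times in that of Col5a1, and 4 times each in those of Col8a1 and Col8a2, overlapping matches included. The overlap of Col4a1 and Col4a2 holds 1. Over all promoter windows of the table, which run from 250 bases before to 50 bases after a start, 32.7% of 32851 held the letters on at least 1 strand. Of the 38 windows of collagen genes, 22 (57.9%) held them. A match is only a match of letters and is not a measured binding site. Whether the reads were counted by strand is not given in the sources used here, so fragments from the 22 shared bases of Col4a1 and Col4a2 cannot be told apart.

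The vessel basement membrane chains Col4a1 and Col4a2 and the beaded filament chain Col6a1 had the highest mean collagen levels in these libraries. About as many collagens were under 1 FPKM as above it. Of the 44 genes, 22 averaged 1 FPKM or more across all libraries and entered the tests. By summed mean level, which is per length, basement membrane collagens came first with 31.6 FPKM, followed by FACITs with 22, fibrillar collagens with 18.5, beaded filament collagens with 18.2 and transmembrane collagens with 11.4 FPKM. Short chain and other collagens each summed to 1.75 FPKM. The 5 genes with the highest means were Col4a2 at 14.4, Col6a1 at 14.1, Col4a1 at 12.6, Col9a3 at 9.9 and Col25a1 at 8.18 FPKM. The other 22 genes had means from 0.0217 to 0.991 FPKM, and 1 of their values was 0, that of Col10a1 in FMT-CON 1. Col27a1 with a mean of 1.0 FPKM stood just inside the limit for testing, and Col12a1 with 0.991 FPKM just outside it. Using GRCm38 transcript lengths, the mean of Col4a2 rests on an estimated 3289 fragments per library and that of Col10a1 on 2.4.

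**Figure D1:**
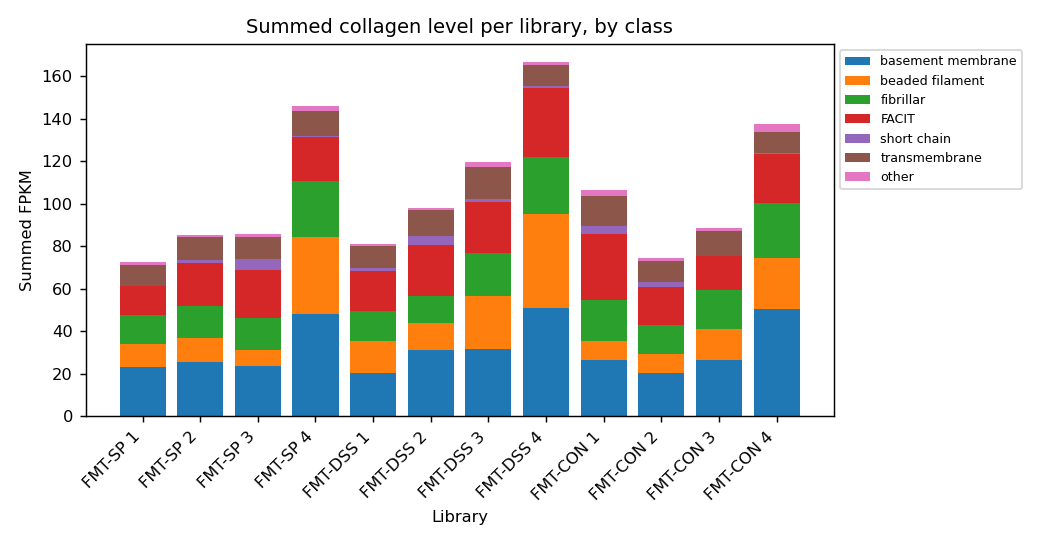
Summed FPKM of the 44 collagens in each of the 12 libraries, stacked by collagen class, with FMT-SP, FMT-DSS and FMT-CON from left to right. The libraries numbered 4 reach 146, 167 and 137 FPKM, and the other 9 lie between 72.5 and 119 FPKM.

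The 2 chains of the common basement membrane collagen, Col4a1 and Col4a2, form a heterotrimer that lines brain vessels and the pial surface. Col4a2 had 10.7, 10.5, 9.85 and 26.7 FPKM in FMT-SP, 8.95, 12.7, 14.3 and 22 FPKM in FMT-DSS, and 10.1, 8.34, 11.8 and 27.4 FPKM in FMT-CON. Col4a1 had 9.85, 11.9, 9.12 and 17.2 FPKM in FMT-SP, 8.0, 14.5, 11.8 and 23 FPKM in FMT-DSS, and 9.31, 8.53, 11 and 17.4 FPKM in FMT-CON. In both genes the library numbered 4 was the highest of its group, and those 3 libraries were the 3 highest of the 12. The other 9 libraries lay between 8.34 and 14.3 FPKM for Col4a2 and between 8.0 and 14.5 FPKM for Col4a1, and the groups overlapped. Group means of Col4a2 were 14.4 ± 8.16 FPKM in FMT-SP, 14.5 ± 5.51 FPKM in FMT-DSS and 14.4 ± 8.78 FPKM in FMT-CON (SD). Group means of Col4a1 were 12 ± 3.65 FPKM in FMT-SP, 14.3 ± 6.35 FPKM in FMT-DSS and 11.6 ± 4.03 FPKM in FMT-CON (SD). Col15a1, a chain carrying heparan or chondroitin sulfate at the outer face of vessel basement membranes, had 1.05, 0.936, 1.21 and 1.84 FPKM in FMT-SP, 1.02, 0.67, 2.42 and 2.38 FPKM in FMT-DSS, and 2.81, 1.18, 1.72 and 2.86 FPKM in FMT-CON. FMT-SP 1 to 3 were at 0.936 to 1.21 FPKM and the highest values were in FMT-CON 4 and FMT-CON 1, yet the ranges of the groups overlapped. Its means were 1.26 ± 0.404 FPKM in FMT-SP, 1.62 ± 0.911 FPKM in FMT-DSS and 2.14 ± 0.831 FPKM in FMT-CON (SD). Col18a1, the source of the endostatin fragment, ranged from 0.423 to 1.75 FPKM and was highest in FMT-CON 1. Col4a5 ranged from 0.526 to 1.08 FPKM and its partner Col4a6, which lies head to head with it, from 0.131 to 0.338 FPKM. Col4a3 and Col4a4, chains best known from the kidney's filtration membrane, ranged from 0.0384 to 0.498 FPKM and from 0.0335 to 0.382 FPKM. Col7a1, which forms the anchoring fibrils of skin, was at 1.16 FPKM in FMT-SP 4 and 1.17 FPKM in FMT-CON 4, against 0.262 to 0.548 FPKM in the other 10 libraries.

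Collagen VI chains assemble into beaded microfilaments around vessels and in the meninges. Col6a1 had 8.27, 8.42, 4.9 and 29.4 FPKM in FMT-SP, 12.3, 9.85, 16.5 and 37.7 FPKM in FMT-DSS, and 6.4, 6.26, 10.1 and 19.1 FPKM in FMT-CON. The 3 libraries numbered 4 were the 3 highest, and FMT-SP 3 was the lowest at 4.90 FPKM. Apart from the libraries numbered 4, FMT-DSS covered 9.85 to 16.5 FPKM, FMT-SP 4.90 to 8.42 FPKM and FMT-CON 6.26 to 10.1 FPKM. The FMT-DSS range thus lay above that of FMT-SP and overlapped with FMT-CON. Those 9 libraries were set apart after the values were seen. The share of all tested genes whose groups part in the same way there was not computed, so no trait of Col6a1 can be read from it. With all 12 libraries each pair of groups overlapped, and the means were 12.8 ± 11.2 FPKM in FMT-SP, 19.1 ± 12.7 FPKM in FMT-DSS and 10.5 ± 6.02 FPKM in FMT-CON (SD). Col6a2, which joins the same heterotrimer, had 1.86, 1.84, 0.896 and 4.24 FPKM in FMT-SP, 1.72, 1.81, 2.98 and 4.62 FPKM in FMT-DSS, and 1.24, 1.31, 2.35 and 2.94 FPKM in FMT-CON. Its lowest value was again in FMT-SP 3, its 2 highest were in FMT-DSS 4 and FMT-SP 4, and the groups overlapped. Group means of Col6a2 were 2.21 ± 1.43 FPKM in FMT-SP, 2.78 ± 1.35 FPKM in FMT-DSS and 1.96 ± 0.825 FPKM in FMT-CON (SD). Col6a3, the third chain of the classical trimer, had a mean of 0.852 FPKM and was not tested. It ranged from 0.132 FPKM in FMT-SP 1 to 3.17 FPKM in FMT-DSS 3, the library with the highest striatal markers. The part of striatal tissue in that value was not tested. Col6a4, Col6a5 and Col6a6, which can take the place of Col6a3, had means of 0.792, 0.149 and 0.0340 FPKM.

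Fibrillar collagens form the tensile fibres of meninges and larger vessel walls. Collagen V chains join type I fibrils and limit their width. Col5a1 had 2.84, 3.42, 1.51 and 7.56 FPKM in FMT-SP, 3.48, 2.19, 3.16 and 10.3 FPKM in FMT-DSS, and 1.5, 2.21, 2.63 and 5.5 FPKM in FMT-CON. Its 3 highest libraries were those numbered 4, and the groups overlapped. The means were 3.83 ± 2.61 FPKM in FMT-SP, 4.77 ± 3.7 FPKM in FMT-DSS and 2.96 ± 1.76 FPKM in FMT-CON (SD). Col5a2 had 1.39, 1.37, 1.2 and 2.86 FPKM in FMT-SP, 1.01, 1.55, 1.78 and 2.93 FPKM in FMT-DSS, and 0.849, 1.11, 1.76 and 2.54 FPKM in FMT-CON. Again the libraries numbered 4 were the 3 highest, the other 9 lay between 0.849 and 1.78 FPKM, and the groups overlapped. Group means of Col5a2 were 1.71 ± 0.776 FPKM in FMT-SP, 1.82 ± 0.807 FPKM in FMT-DSS and 1.56 ± 0.754 FPKM in FMT-CON (SD). Col5a3 had 0.628, 0.893, 0.721 and 1.46 FPKM in FMT-SP, 0.836, 1.23, 1.07 and 2.02 FPKM in FMT-DSS, and 1.69, 0.51, 0.752 and 1.88 FPKM in FMT-CON. FMT-DSS 4, FMT-CON 4 and FMT-CON 1 were its highest libraries, the groups overlapped, and the means were 0.925 ± 0.371 FPKM in FMT-SP, 1.29 ± 0.515 FPKM in FMT-DSS and 1.21 ± 0.679 FPKM in FMT-CON (SD).

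Type I collagen, the chief fibril former of the leptomeninges, was low in these libraries. Col1a1 had 0.946, 1.26, 1.87 and 1.22 FPKM in FMT-SP, 0.876, 0.633, 1.86 and 0.981 FPKM in FMT-DSS, and 1.73, 1.44, 2.06 and 1.38 FPKM in FMT-CON. Its highest library was FMT-CON 3, all FMT-CON libraries were at 1.38 FPKM or more, and FMT-DSS 3 and FMT-SP 3 lay within their range. The means were 1.32 ± 0.389 FPKM in FMT-SP, 1.09 ± 0.538 FPKM in FMT-DSS and 1.65 ± 0.309 FPKM in FMT-CON (SD). Its partner chain Col1a2 had 1.57, 1.98, 2.91 and 1.57 FPKM in FMT-SP, 1.24, 2.54, 2.56 and 1.33 FPKM in FMT-DSS, and 3.74, 2.22, 2.64 and 1.45 FPKM in FMT-CON. The highest library was FMT-CON 1, the libraries numbered 4 were among the lower ones with 1.33 to 1.57 FPKM, and the groups overlapped. Group means of Col1a2 were 2.01 ± 0.634 FPKM in FMT-SP, 1.91 ± 0.731 FPKM in FMT-DSS and 2.51 ± 0.954 FPKM in FMT-CON (SD). Col3a1, which forms fibrils with type I collagen in vessels, ranged from 0.201 to 1.12 FPKM, with the highest value in FMT-CON 3, the library with pituitary RNA. The part of pituitary tissue in that value was not tested.

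Collagen XI chains accompany type II collagen in cartilage. Col11a1 had 1.96, 1.81, 1.48 and 5.44 FPKM in FMT-SP, 2.16, 1.37, 2.84 and 3.85 FPKM in FMT-DSS, and 2.39, 1.2, 2.47 and 5.65 FPKM in FMT-CON. Its 3 highest libraries were those numbered 4, and the groups overlapped around means of 2.67 ± 1.86 FPKM in FMT-SP, 2.55 ± 1.05 FPKM in FMT-DSS and 2.93 ± 1.91 FPKM in FMT-CON (SD). Col11a2 had 3.07, 2.56, 3.52 and 4.3 FPKM in FMT-SP, 2.86, 1.31, 4.37 and 3.05 FPKM in FMT-DSS, and 3.73, 2.99, 3.3 and 4.81 FPKM in FMT-CON. FMT-DSS 2 stood lowest at 1.31 FPKM, the other 11 libraries lay between 2.56 and 4.81 FPKM, and the groups overlapped. Group means of Col11a2 were 3.36 ± 0.74 FPKM in FMT-SP, 2.89 ± 1.25 FPKM in FMT-DSS and 3.71 ± 0.795 FPKM in FMT-CON (SD). Col27a1, a fibrillar collagen of cartilage, had 0.638, 0.809, 1.1 and 0.877 FPKM in FMT-SP, 0.846, 0.855, 1.41 and 0.55 FPKM in FMT-DSS, and 1.84, 1.02, 1.08 and 0.979 FPKM in FMT-CON. FMT-CON 1 was its highest library, and the groups overlapped around means of 0.857 ± 0.193 FPKM in FMT-SP, 0.916 ± 0.36 FPKM in FMT-DSS and 1.23 ± 0.409 FPKM in FMT-CON (SD). The cartilage collagen Col2a1 ranged from 0.0811 to 0.819 FPKM and Col24a1 from 0.171 to 0.847 FPKM.

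FACITs sit on the surface of fibrils and do not form fibrils themselves. Collagen IX is known from cartilage, where its 3 chains coat type II fibrils. Col9a3 had 2.92, 9.81, 13.6 and 4.0 FPKM in FMT-SP, 9.83, 13.3, 11 and 18.4 FPKM in FMT-DSS, and 18.2, 9.25, 3.6 and 4.97 FPKM in FMT-CON. FMT-SP 1, FMT-CON 3, FMT-SP 4 and FMT-CON 4 were the 4 lowest libraries, at 2.92 to 4.97 FPKM. All 4 FMT-DSS libraries lay among the other 8, at 9.83 to 18.4 FPKM, and their range overlapped with that of each other group. The means were 7.57 ± 5.01 FPKM in FMT-SP, 13.1 ± 3.79 FPKM in FMT-DSS and 9.0 ± 6.58 FPKM in FMT-CON (SD). Col9a2 had 1.23, 1.54, 1.66 and 2.1 FPKM in FMT-SP, 1.41, 2.03, 2.35 and 2.7 FPKM in FMT-DSS, and 2.51, 1.76, 2.2 and 3.23 FPKM in FMT-CON. FMT-SP 1 was the lowest library and FMT-CON 4 the highest, and the ranges of the groups overlapped. Group means of Col9a2 were 1.63 ± 0.36 FPKM in FMT-SP, 2.12 ± 0.546 FPKM in FMT-DSS and 2.42 ± 0.616 FPKM in FMT-CON (SD). The third chain, Col9a1, ranged from 0.0636 to 0.402 FPKM and was not tested.

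Among the other FACITs, Col19a1 is made by interneurons of the mouse hippocampus. It had 3.6, 3.46, 1.5 and 3.88 FPKM in FMT-SP, 2.7, 2.35, 2.98 and 2.39 FPKM in FMT-DSS, and 1.15, 1.99, 3.36 and 3.61 FPKM in FMT-CON. FMT-CON 1 and FMT-SP 3 were its lowest libraries, the FMT-DSS values lay within the ranges of the other groups, and the means were 3.11 ± 1.09 FPKM in FMT-SP, 2.61 ± 0.296 FPKM in FMT-DSS and 2.53 ± 1.16 FPKM in FMT-CON (SD). Those 2 libraries had the highest summed levels of 8 thalamic markers, 212 FPKM in FMT-CON 1 and 113 FPKM in FMT-SP 3, against 17 to 55.8 FPKM in the other 10. FMT-CON 1 and FMT-SP 3 also had the highest sums of choroid plexus markers, 3650 and 3885 FPKM, and of ependymal markers, 89.9 and 81.7 FPKM. The part of thalamic or other tissue in these values was not tested. Col16a1 had 1.86, 2.23, 2.02 and 4.27 FPKM in FMT-SP, 1.61, 2.88, 3.43 and 4.67 FPKM in FMT-DSS, and 5.33, 1.75, 2.04 and 5.57 FPKM in FMT-CON. Its highest values were in FMT-CON 4 and FMT-CON 1, FMT-SP 4 stood above the rest of its group, and the groups overlapped around means of 2.59 ± 1.13 FPKM in FMT-SP, 3.15 ± 1.27 FPKM in FMT-DSS and 3.67 ± 2.06 FPKM in FMT-CON (SD). Col20a1 had 1.95, 2.02, 2.22 and 4.54 FPKM in FMT-SP, 1.92, 2.37, 2.75 and 2.33 FPKM in FMT-DSS, and 2.01, 1.81, 2.52 and 3.84 FPKM in FMT-CON. FMT-SP 4 and FMT-CON 4 were its highest libraries, and the groups overlapped around means of 2.68 ± 1.24 FPKM in FMT-SP, 2.34 ± 0.338 FPKM in FMT-DSS and 2.54 ± 0.913 FPKM in FMT-CON (SD). Col12a1 and Col14a1, which bind type I fibrils, ranged from 0.622 to 1.29 FPKM and from 0.0856 to 0.271 FPKM, and Col22a1 ranged from 0.0805 to 0.453 FPKM.

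Collagen VIII is a short chain collagen that forms hexagonal lattices, known from vessel walls and from the membrane behind the cornea. Col8a2 had 0.123, 0.903, 3.41 and 0.126 FPKM in FMT-SP, 0.805, 2.25, 0.716 and 0.639 FPKM in FMT-DSS, and 2.52, 1.28, 0.124 and 0.0768 FPKM in FMT-CON. Col8a1, with a mean under 1 FPKM, had 0.108, 0.469, 1.61 and 0.11 FPKM in FMT-SP, 0.417, 2.01, 0.423 and 0.329 FPKM in FMT-DSS, and 1.35, 0.717, 0.119 and 0.0673 FPKM in FMT-CON. Both genes were lowest in the same 4 libraries, FMT-SP 1, FMT-SP 4, FMT-CON 3 and FMT-CON 4. Group means of Col8a2 were 1.14 ± 1.56 FPKM in FMT-SP, 1.1 ± 0.769 FPKM in FMT-DSS and 1.0 ± 1.16 FPKM in FMT-CON (SD), and the SD exceeded the mean in FMT-SP and FMT-CON. The third short chain collagen, Col10a1 of growth plate cartilage, was at or under 0.0366 FPKM in 11 libraries and at 0.115 FPKM in FMT-SP 1, an estimated 12.7 fragments.

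Transmembrane collagens keep their chain anchored in the cell surface until it is shed. Col25a1 is made by neurons, and its shed ectodomain is found in amyloid plaques. It had 7.78, 7.93, 8.73 and 6.6 FPKM in FMT-SP, 8.29, 9.06, 10.2 and 5.17 FPKM in FMT-DSS, and 12, 8.33, 8.29 and 5.8 FPKM in FMT-CON. Here the libraries numbered 4 were the 3 lowest of the 12, FMT-CON 1 was the highest, and the groups overlapped. Group means of Col25a1 were 7.76 ± 0.879 FPKM in FMT-SP, 8.18 ± 2.16 FPKM in FMT-DSS and 8.59 ± 2.54 FPKM in FMT-CON (SD). Col23a1 had 2.0, 2.7, 1.29 and 5.2 FPKM in FMT-SP, 1.74, 2.82, 4.59 and 4.3 FPKM in FMT-DSS, and 1.58, 1.71, 3.0 and 4.23 FPKM in FMT-CON. FMT-SP 4 was the highest library, FMT-SP 3 the lowest, and the groups overlapped around means of 2.8 ± 1.7 FPKM in FMT-SP, 3.36 ± 1.33 FPKM in FMT-DSS and 2.63 ± 1.25 FPKM in FMT-CON (SD). Col13a1, a collagen of the neuromuscular junction, and Col17a1, a collagen of epithelial hemidesmosomes, ranged from 0.0679 to 0.261 FPKM and from 0.010 to 0.285 FPKM. Of the remaining 2 genes, Col26a1 had 0.99, 1.02, 1.59 and 2.08 FPKM in FMT-SP, 1.0, 0.847, 1.86 and 1.35 FPKM in FMT-DSS, and 2.56, 1.1, 1.51 and 3.1 FPKM in FMT-CON. FMT-CON 4 and FMT-CON 1 were its highest libraries, and the groups overlapped around means of 1.42 ± 0.52 FPKM in FMT-SP, 1.26 ± 0.449 FPKM in FMT-DSS and 2.07 ± 0.925 FPKM in FMT-CON (SD). Col28a1 ranged from 0.0623 to 0.293 FPKM.

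**Figure D2:**
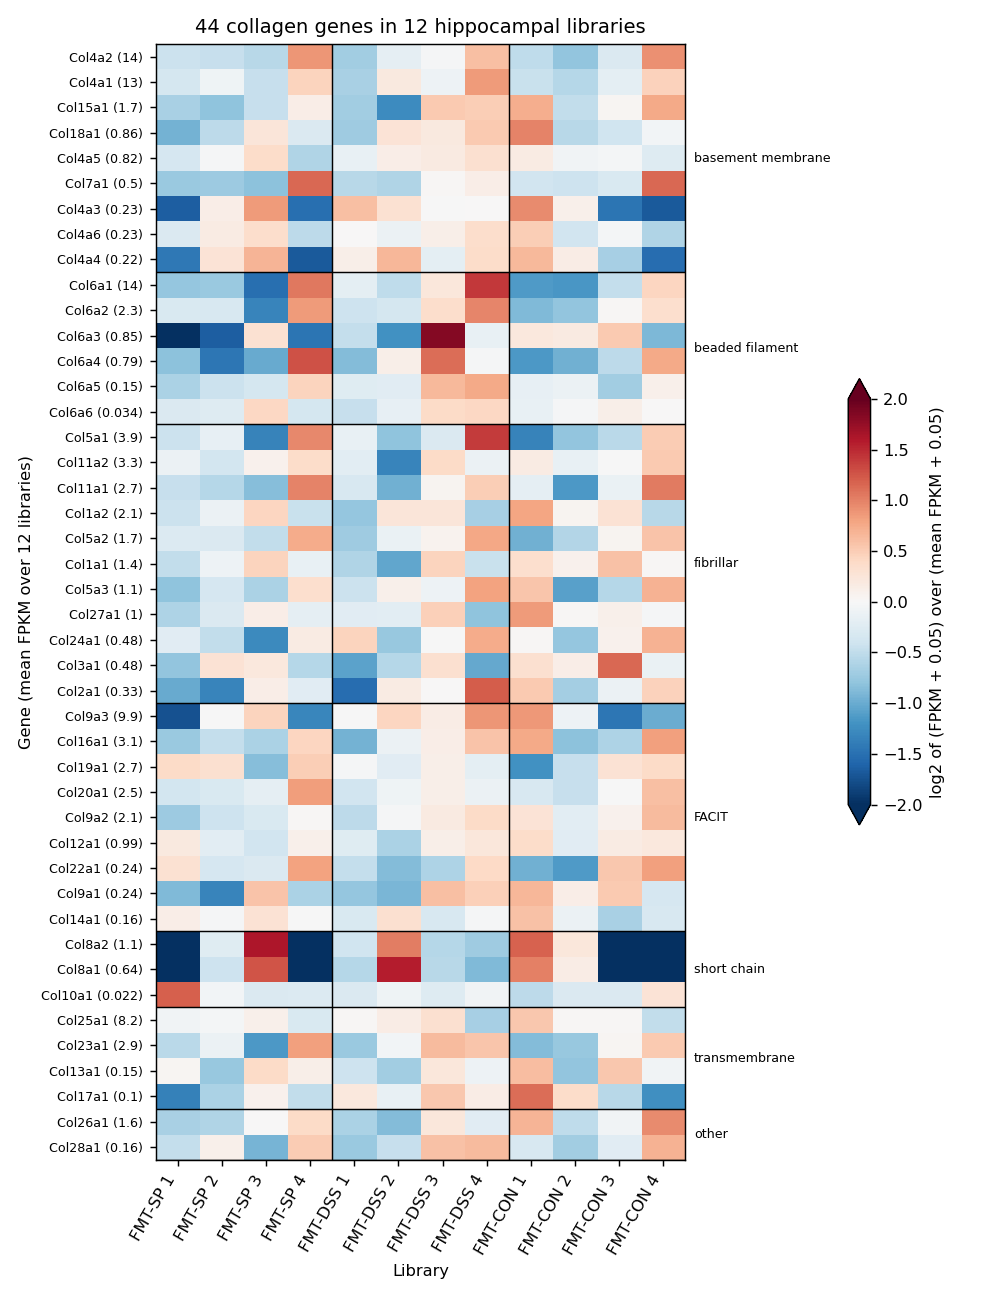
Each cell is the log2 ratio of a collagen's level in 1 library to its mean over the 12 libraries (0.05 FPKM added to both), red above and blue below the mean, with genes in rows by class and libraries in columns by group. The libraries numbered 4 are red for Col4a1, Col4a2, Col5a1, Col5a2, Col6a1, Col7a1 and Col11a1, and FMT-SP 1, FMT-SP 4, FMT-CON 3 and FMT-CON 4 are blue for Col8a1, Col8a2, Col4a3, Col4a4 and Col9a3.

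**Figure D3:**
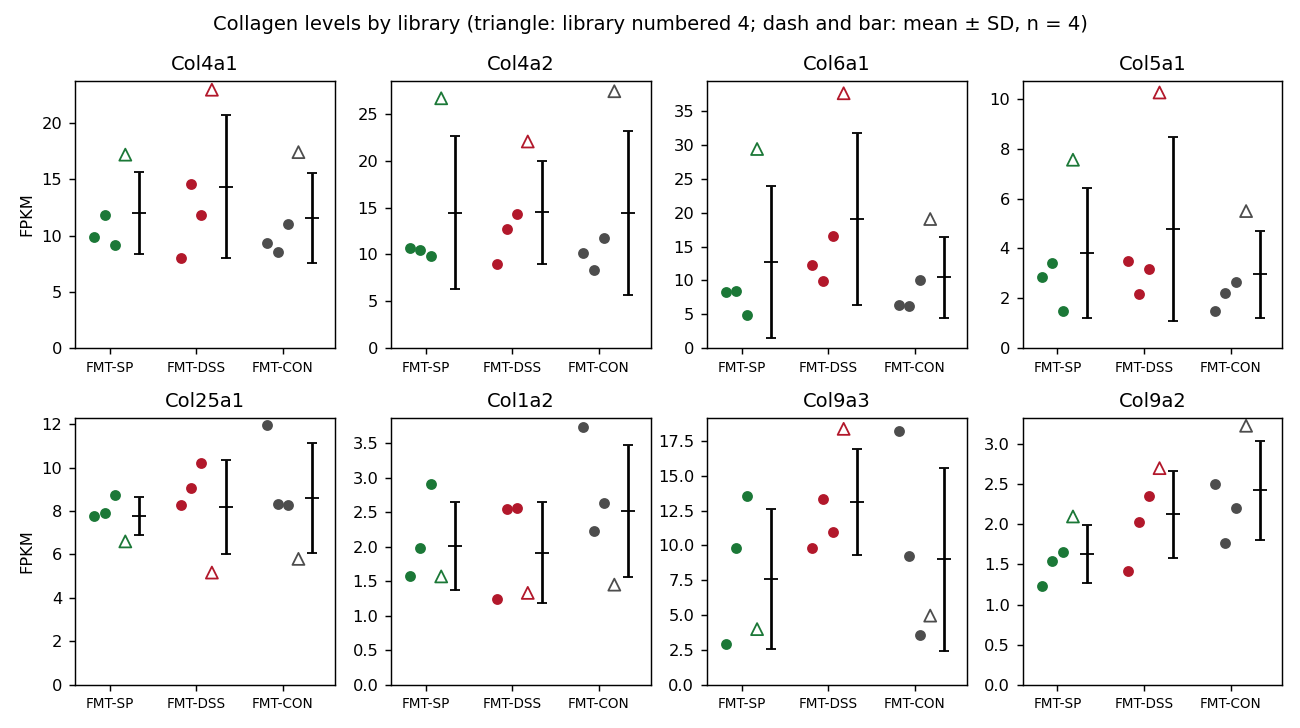
FPKM of 8 collagens in each library (points; triangles are the libraries numbered 4) with the group mean ± SD of 4 libraries, for FMT-SP, FMT-DSS and FMT-CON from left to right. The groups overlap in all 8 genes, and the triangles stand above the circles of every group for Col4a1, Col4a2, Col5a1 and Col6a1 and below them for Col25a1.

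FMT-DSS against FMT-CON asks how hippocampal levels differed between those groups of transplanted mice. As many tested collagens had higher as lower means in FMT-DSS, 11 and 11, and none passed the test. The largest differences were those of Col6a1, with a log2 change of 0.76 ± 0.51 (SE) on the log2(FPKM + 1) scale, and of Col9a3, with 0.68 ± 0.47. On the lower side, Col26a1 differed by -0.41 ± 0.23 and Col1a1 by -0.37 ± 0.18. By class, both beaded filament collagens and 2 of 3 basement membrane collagens had higher means in FMT-DSS, while 5 of 8 fibrillar and 3 of 5 FACIT collagens had lower means. All values were fitted in 1 limma model over the 12 libraries, with Benjamini-Hochberg adjustment over every gene tested. In that fit 0% of the 12559 genes tested passed an adjusted p of 0.05, and the smallest adjusted p of any gene was 0.966. At an unadjusted p under 0.05, 510 genes (4.06%) and 0 of the 22 tested collagens passed, the nearest being Col1a1 at an unadjusted p of 0.0559 and Col26a1 at 0.095, both lower in FMT-DSS. None of the 44 collagens had groups that did not overlap, against 1.75% of all tested genes. The median change was 0.01 over the tested collagens and -0.03 over all tested genes, where 40.3% had a higher mean and 59.7% a lower one.

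With the libraries numbered 4 left out, an alternative added after the values were seen, the median change of the tested collagens in FMT-DSS against FMT-CON was 0.07, with 13 higher and 9 lower means. The change of Col6a1 was then 0.70 ± 0.24 (SE), with an unadjusted p of 0.0184 and an adjusted p of 0.933, and 2.94% of all tested genes had an unadjusted p under 0.05. The change of Col4a1 was 0.25 ± 0.29 with all libraries and -0.18 without FMT-DSS 2 and FMT-DSS 4. The median 95% interval of a tested collagen reached 0.55 to either side of its change. The labels do not say that equal numbers mark pairs. At number 3 the deviations of FMT-DSS and FMT-CON from their group means had an r of 0.01 over genes. In an alternative fit with the replicate number as a block, 1274 genes (10.1%) had an unadjusted p under 0.05, and 0 passed the adjusted threshold. Among them were 3 of the 22 tested collagens. Col6a1, higher in FMT-DSS, had an unadjusted p of 0.00713 and an adjusted p of 0.437 in limma's test. Its unadjusted p in that test without the block was 0.165. Col1a1 and Col26a1, both lower, had unadjusted p-values of 0.0105 and 0.0428 and adjusted p-values of 0.460 and 0.489.

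FMT-SP against FMT-DSS asks how the group with substance P in the series title differed from FMT-DSS. Of the 22 tested collagens 16 had lower means in FMT-SP and 6 had higher means, and none passed the test. The largest differences were in Col9a3, with a log2 change of -0.89 ± 0.47 (SE), and in Col6a1, with -0.66 ± 0.51. On the higher side stood Col11a2 with 0.21 ± 0.23 and Col1a1 with 0.17 ± 0.18. Both beaded filament and all 3 basement membrane collagens tested had lower means in FMT-SP, as did 5 of 8 fibrillar, 3 of 5 FACIT and both transmembrane collagens. In limma's test 0% of the 12559 genes passed an adjusted p of 0.05, with a smallest adjusted p of 0.999. At an unadjusted p under 0.05, 314 genes (2.5%) passed and 0 collagens did, Col9a3 being nearest at an unadjusted p of 0.0819. None of the 44 collagens had groups that did not overlap, against 1.27% of all tested genes. The median change was -0.11 over the tested collagens and 0.03 over all tested genes, of which 58.9% had a higher and 41.1% a lower mean.

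Deviations from group means in FMT-SP and FMT-DSS libraries of the same number had an r of 0.36, 0.35, 0.11 and 0.69 over genes, for numbers 1 to 4. Whether the number marks a pair or a batch is not stated, so the fit with it as a block is an alternative only. With the block, 885 genes (7.05%) had an unadjusted p under 0.05 in FMT-SP against FMT-DSS, again with 0 past the adjusted threshold. Col6a1 was the 1 collagen among them, lower in FMT-SP at 4 of 4 numbers, with an unadjusted p of 0.0147 and an adjusted p of 0.672. Its unadjusted p in limma's test without the block was 0.222. Without the libraries numbered 4, the change of Col6a1 was -0.77 ± 0.24 (SE), with an unadjusted p of 0.0115 and an adjusted p of 0.999, while 1.33% of all tested genes had an unadjusted p under 0.05. In that fit 18 of the 22 tested collagens had lower means, with a median change of -0.14. In Col9a3, 2 of the 4 FMT-SP libraries were among those with little Ttr and 0 of the 4 FMT-DSS libraries were. With a choroid plexus covariate 3.85% of all tested genes had an unadjusted p under 0.05. In that fit the change of Col9a3 was -0.54 ± 0.22 at an unadjusted p of 0.0302, and that of Col6a1 was -0.95 ± 0.40 at an unadjusted p of 0.0353, both with an adjusted p of 0.811.

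FMT-SP against FMT-CON sets the group with SP beside the FMT-CON libraries, and it shares its libraries with both comparisons above. Means were higher in FMT-SP for 10 and lower for 12 of the tested collagens, and none passed the test. Col9a2 had the smallest p, with a log2 change of -0.37 ± 0.16 (SE), an unadjusted p of 0.0423 and an adjusted p of 1.0 in limma's test. It was the 1 collagen among the 45 genes (0.358%) with an unadjusted p under 0.05, and its groups overlapped. Of all tested genes, 0.295% were lower and 0.0637% higher in FMT-SP at that p. Col15a1 differed by -0.45 ± 0.26, Col26a1 by -0.31 ± 0.23, Col16a1 by -0.31 ± 0.33 and Col27a1 by -0.25 ± 0.16. The largest higher mean on this scale was that of Col19a1 with 0.24 ± 0.25. By class, 6 of 8 fibrillar and 3 of 5 FACIT collagens had lower means in FMT-SP. In the fit 0% of the genes passed an adjusted p of 0.05. None of the 44 collagens had groups that did not overlap, against 0.494% of all tested genes. The median change was -0.10 over the tested collagens and -0.01 over all tested genes, of which 46.7% had a higher and 53.3% a lower mean. Without the libraries numbered 4 it was -0.11 over the tested collagens, with 6 higher and 16 lower, and Col9a2 differed by -0.35 ± 0.15 at an unadjusted p of 0.0478, with 0.812% of all tested genes at an unadjusted p under 0.05.

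**Figure D4:**
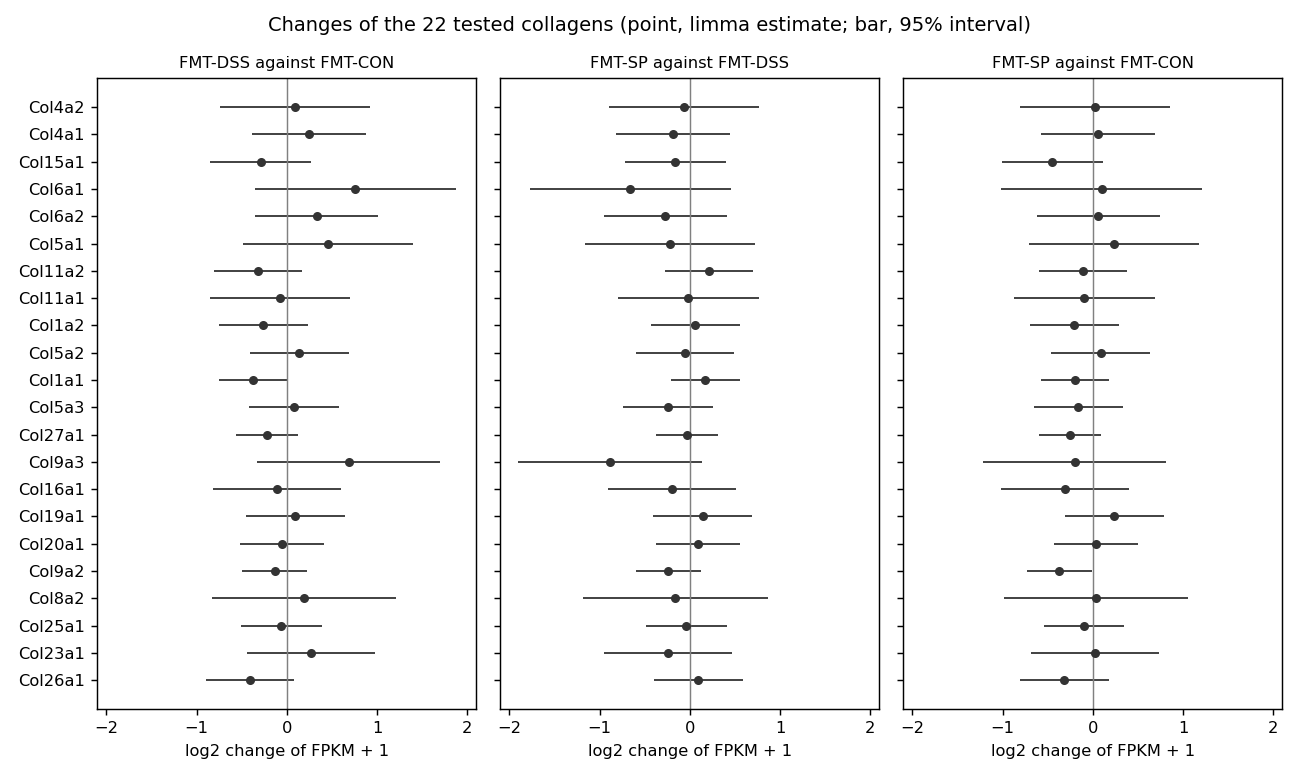
Fitted log2 changes of FPKM + 1 with 95% intervals for the 22 tested collagens in 3 panels, from left to right FMT-DSS against FMT-CON, then FMT-SP against FMT-DSS, then FMT-SP against FMT-CON. The interval of Col9a2 in FMT-SP against FMT-CON ends just below 0, and every other interval includes 0.

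The larger differences among collagens lay between libraries of the same group. The libraries numbered 4 were the 3 highest of the 12 in 6 of the 22 tested collagens, namely Col4a1, Col4a2, Col6a1, Col5a1, Col5a2 and Col11a1, against 9.05% of all tested genes. They were the 3 lowest in 1, Col25a1, against 17.1% of all tested genes. Among all 44 collagens the count of genes highest there was 7, with Col7a1 added. The ratio of the mean of these 3 libraries to the mean of the other 9 was 3.11 for Col6a1, 3.05 for Col5a1, 2.54 for Col11a1, 2.35 for Col4a2 and 1.84 for Col4a1. At the other end it was 0.654 for Col25a1, 0.610 for Col1a2 and 0.208 for Col8a2. Its median was 1.64 over the tested collagens, 1.30 over all 44 and 0.948 over all tested genes. Chains of the same class differed here, since Col5a1 was above 3 times the level of the other libraries while Col1a1, also fibrillar, was at 0.847 times.

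Summed markers of endothelial, mural and meningeal cells in the libraries numbered 4 lay within or below the range of the other 9. Summed over 12 endothelial markers, the libraries numbered 4 had 111 to 123 FPKM and the other 9 had 117 to 177 FPKM. Over 12 mural cell markers the sums were 83.2 to 85.9 FPKM in the libraries numbered 4 and 65.5 to 114 FPKM in the others. Over 16 meningeal fibroblast markers they were 63.4 to 76.6 FPKM and 54.9 to 113 FPKM. Each of these lists had 0 genes under 0.1 FPKM in every library. The share of mitochondrially encoded RNA moved with these libraries, as given above, and its part in the collagen values was not tested. The GC content of GRCm38 transcripts was higher in the tested collagens, with a median of 57.9% against 49.9% over all tested genes. Across the 12120 tested genes with a value, Pearson's r between GC content and the log2 ratio of the libraries numbered 4 to the others was 0.33. Across the 22 tested collagens it was 0.03. Transcripts of the tested collagens were also longer, with a median of 5548 bases against 3442 over all tested genes. With log10 of the length in place of GC content, r was -0.35 across the tested genes with a value and 0.18 across the tested collagens. Genes are not independent replicates, and these values are descriptions. The part of GC content or length in the collagen values was not tested. In bulk tissue fewer cells of a type and less RNA per cell cannot be told apart.

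Several collagens were lowest in the libraries with the least of the choroid plexus gene Ttr, which encodes transthyretin. The 4 libraries with at most 83.5 FPKM of Ttr were also the 4 lowest for 5 of the 44 collagens, Col4a3, Col4a4, Col8a1, Col8a2 and Col9a3, and these include 2 of the 22 tested ones. Over all tested genes the share lowest in those 4 libraries was 1.25%, which is to be set beside the 2 of 22. No such share was computed for genes under the limit for testing, where Col4a3, Col4a4 and Col8a1 lie. Col8a2 was at 0.0768 to 0.126 FPKM in the 4 libraries, against 0.639 to 3.41 FPKM in the other 8. Col8a1 was at 0.0673 to 0.119 FPKM there, against 0.329 to 2.01 FPKM. For the head to head pair Col4a3 and Col4a4 the levels were 0.0384 to 0.0525 FPKM and 0.0335 to 0.120 FPKM in the 4 libraries, against 0.230 to 0.498 FPKM and 0.186 to 0.382 FPKM in the other 8. Col9a3 was at 2.92 to 4.97 FPKM in the 4 libraries and at 9.25 to 18.4 FPKM in the other 8. The 14 choroid plexus markers summed to 20.1 to 3885 FPKM in FMT-SP, to 1319 to 2951 FPKM in FMT-DSS and to 33.5 to 3650 FPKM in FMT-CON, so that 2 libraries each of FMT-SP and FMT-CON and none of FMT-DSS were low. The part of choroid plexus tissue in the collagen values was not tested. Within the 8 libraries with Ttr over 1000 FPKM, Pearson's r with Ttr was 0.80 for Col8a1 (exact permutation p = 0.0207, adjusted p = 0.0650 over 22 relations) with a Spearman's rho of 0.67 (exact permutation p = 0.0831). Pearson's r with Ttr was 0.63 for Col9a3, 0.58 for Col18a1 and 0.51 for Col1a2. No relation with Ttr, that of Col8a1 included, passed an adjusted p of 0.05.

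**Figure D5:**
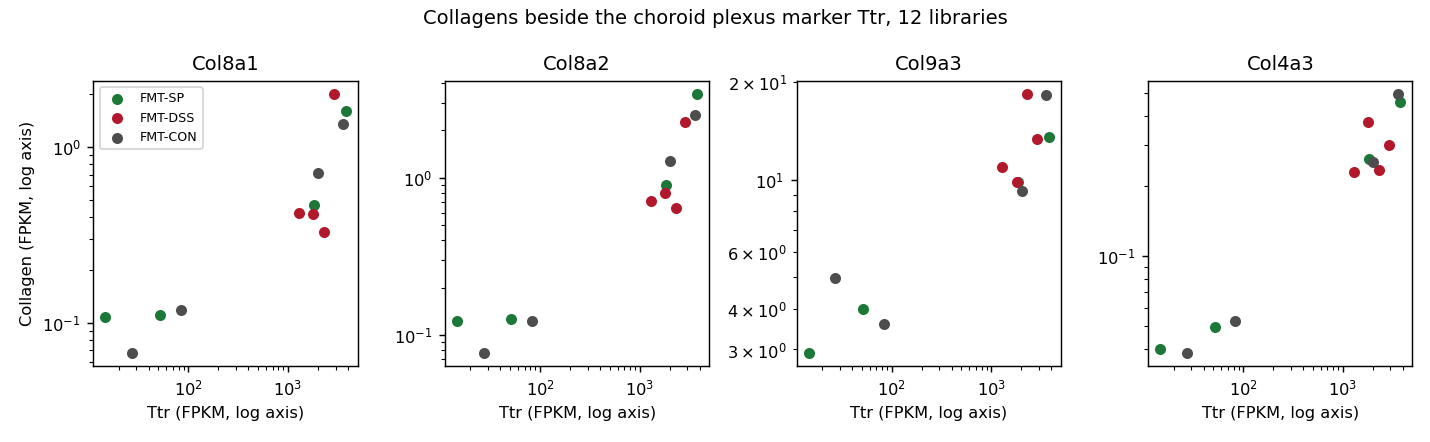
FPKM of Col8a1, Col8a2, Col9a3 and Col4a3 against FPKM of Ttr in the 12 libraries, both on log axes, coloured by group. FMT-SP 1, FMT-SP 4, FMT-CON 3 and FMT-CON 4 lie at the lower left of each panel, at 14.7 to 83.5 FPKM of Ttr, apart from the other 8 libraries.

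Pairs of collagen chains, most of them partners in 1 trimer, were also compared across libraries on the log2(FPKM + 1) scale. Together with pairs of a marker gene and a collagen, they made a family of 22 relations over 13 gene pairs. Since the libraries numbered 4 stand apart for collagens IV, V and VI, their r is given over the other 9. Pearson's r was 0.82 between Col4a1 and Col4a2 (exact permutation p = 0.00659, adjusted p = 0.0290), with a Spearman's rho of 0.85 (exact permutation p = 0.00607, adjusted p = 0.0334), and 0.81 without the 2 libraries farthest from the median of Col4a1. Between Col6a1 and Col6a2 it was 0.91 (exact permutation p = 0.00118, adjusted p = 0.00652), with a rho of 0.75 (exact permutation p = 0.0255, adjusted p = 0.0801), and 0.71 without the 2 farthest. Between Col5a1 and Col5a2 it was 0.42 (exact permutation p = 0.258) and -0.12 without the 2 farthest. No relation could thus be shown for collagen V apart from the libraries numbered 4. With them, over all 12 libraries, r of this pair was 0.87 (permutation p = 0.00036, adjusted p = 0.00264). Its rho was then 0.68 (permutation p = 0.0179, adjusted p = 0.0655). Over all 12 libraries, r was 0.59 between Col1a1 and Col1a2 (permutation p = 0.0461, adjusted p = 0.127), with a rho of 0.69 (permutation p = 0.0165, adjusted p = 0.0655), and 0.86 without the 2 farthest. Over the 9 libraries not numbered 4, r of that pair was 0.61 (exact permutation p = 0.0854, adjusted p = 0.174). Between Col1a2 and Col3a1, r over all 12 libraries was 0.67 (permutation p = 0.0155, adjusted p = 0.0567), with a rho of 0.82 (permutation p = 0.00167, adjusted p = 0.0122), and 0.65 without the 2 farthest. Among the 9 libraries not numbered 4 that r was 0.60, and 0.09 without the 2 farthest, so that it rests on those libraries. Markers of fibroblasts and vessel cells were set beside the collagens in the same way. Over the 12 libraries r was 0.04 between the fibroblast proteoglycan Dcn and Col1a2, 0.50 between the meningeal transporter Slc6a13 and Col1a2, 0.22 between the endothelial gene Cldn5 and Col4a1 and 0.22 between the mural cell receptor Pdgfrb and Col4a1, with adjusted p-values from 0.174 to 0.897.

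The machinery around collagens was described from lists of genes chosen by role. None of the tested members of these lists passed the test in any comparison. For scale, 59.7% of all tested genes had lower means in FMT-DSS against FMT-CON, 41.1% in FMT-SP against FMT-DSS and 53.3% in FMT-SP against FMT-CON. Of 29 genes for collagen modification and processing 24 were tested. In FMT-DSS against FMT-CON 11 of them had higher and 13 lower means, in FMT-SP against FMT-DSS 12 and 12, and in FMT-SP against FMT-CON 7 and 17. Serpinh1, the collagen chaperone of the endoplasmic reticulum, averaged 8.49 ± 3.17 FPKM in FMT-SP, 7.5 ± 3.03 FPKM in FMT-DSS and 10.3 ± 2.35 FPKM in FMT-CON (SD, n = 4 each). P4hb, a subunit of the prolyl hydroxylase that stabilises the triple helix, averaged 37 ± 2.69 FPKM in FMT-SP and 39.3 ± 2.9 FPKM in FMT-CON. Of 10 collagen receptors 4 were tested, and all 4 had lower means in FMT-DSS than in FMT-CON. Their median change was -0.14, against -0.03 over all tested genes. Ddr1, a receptor tyrosine kinase that binds collagen, averaged 6.19 ± 2.02 FPKM in FMT-SP, 6.44 ± 0.331 FPKM in FMT-DSS and 7.54 ± 2.27 FPKM in FMT-CON.

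Among matrix metalloproteinases and their inhibitors, 9 of 15 genes were tested. They were higher in 4 and lower in 5 for FMT-DSS against FMT-CON, higher in 6 and lower in 3 for FMT-SP against FMT-DSS, and higher in 4 and lower in 5 for FMT-SP against FMT-CON. Mmp17, a membrane-anchored protease, had the highest level of those named by the rule, with 48.1 ± 2.97 FPKM in FMT-SP, 39.4 ± 10.9 FPKM in FMT-DSS and 42.6 ± 10.3 FPKM in FMT-CON. Basement membrane partners of collagen IV, such as laminins and nidogens, had 12 of 15 genes tested. In FMT-DSS against FMT-CON 9 had higher and 3 lower means, and in FMT-SP against FMT-DSS 3 had higher and 9 lower means, 2 comparisons that share the FMT-DSS libraries. Lama5, a laminin chain of vessel basement membranes, averaged 1.91 ± 0.470 FPKM in FMT-SP, 2.82 ± 1.21 FPKM in FMT-DSS and 1.88 ± 0.595 FPKM in FMT-CON. Of 9 proteoglycans that bind collagen fibrils 6 were tested, and 5 of them had lower means in FMT-DSS than in FMT-CON, as had 59.7% of all tested genes. Ogn, a small leucine-rich proteoglycan that regulates fibril formation, averaged 3.21 ± 0.928 FPKM in FMT-SP, 2.48 ± 1.14 FPKM in FMT-DSS and 4.24 ± 1.81 FPKM in FMT-CON. Its log2 change in FMT-DSS against FMT-CON was -0.59 ± 0.26 (SE), with an unadjusted p of 0.0386 and an adjusted p of 0.966 in limma's test.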

How the data were processed

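Hippocampal RNA-seq values of 12 libraries, 4 per group, were taken from 1 table of FPKM per gene and library, computed and deposited by the authors. The submitters' processing notes name HISAT2 2.0 and the build mm8 without a role to either. For the read counter, annotation and filters of the authors, the sources used here give no name. The files hold no coordinates, so GRCm38 served only for sequences, transcript lengths and GC content. Groups and numbers came from the sample titles, 0 pairs of libraries were identical, and 0 columns belonged to other samples.

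Values were tested as log2(FPKM + 1) in limma 3.58.1 (R 4.3.3), using its trend option and all 12 libraries in 1 model, 3 two-sided comparisons and Benjamini-Hochberg adjustment over the 12559 genes averaging 1 FPKM or more (threshold 0.05). The steps were tested on simulated data. Changes on this scale understate those of low genes. Relations used exact permutation tests for under 10 libraries and 100000 resamples for 12. Depth was estimated from 4713 genes with 1 annotated transcript: at the depth chosen, 39.2% to 41.9% of low values came within 0.05 of whole fragments, against a median of 7.38% to 7.68% over the depths tried. These estimates were not used as counts in a test.

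The numbers in the titles were checked for pairing by correlating deviations from group means over genes. The 4 correlations were 0.11 to 0.69 for FMT-SP with FMT-DSS and 0.01 to 0.72 for FMT-DSS with FMT-CON. For FMT-SP with FMT-CON they were -0.45 to 0.84. The highest of each was that of the libraries numbered 4. All 4 were positive for FMT-SP with FMT-DSS and for FMT-DSS with FMT-CON, though 0.01 is hardly a correlation. Among libraries of the other groups, 7 of the 12 libraries correlated best with a library of their own number. The labels do not say that equal numbers mark pairs or a batch. The fit with the number as a block is thus given for both comparisons as an alternative only.

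Every collagen with a mean of at least 1 FPKM is given in full and the others by range; from each list around collagens, genes were chosen among the 3 of smallest unadjusted p. Members, lists and markers were chosen with earlier results of these data known. Alternatives were a pseudocount of 0.1, other filters, 2 rescalings, array weights, the replicate block, 2 marker covariates, each library left out, FMT-DSS 2 and 4 left out, and, added after the values were seen, the 3 libraries numbered 4 left out.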

Additional observations from a re-analysis of the deposited data

Results flagged for a closer look

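In a group of 4 libraries, a value was singled out where its gap to the nearest other value took up more of the group's range than Dixon's critical value allows. Of 132 tests over the 44 collagens and 3 groups, 17 (12.9%) passed in 15 genes, where chance gives about 1 in 20, and 10 of the 17 were in a library numbered 4. Over all tested genes 6.22% of such tests passed, 55.8% of them in a library numbered 4. Whether the collagens differ from other genes in this was not tested. FMT-SP 4 stood above the rest of FMT-SP for Col4a2 at 26.7, Col6a1 at 29.4, Col6a4 at 1.99, Col7a1 at 1.16, Col11a1 at 5.44, Col16a1 at 4.27, Col20a1 at 4.54 and Col5a2 at 2.86 FPKM. FMT-DSS 4 stood above FMT-DSS for Col5a1 at 10.3 FPKM, and FMT-CON 4 above FMT-CON for Col7a1 at 1.17 FPKM. The other values were not in those libraries. FMT-DSS 2 stood above its group for Col8a1 at 2.01 and Col8a2 at 2.25 FPKM, and it had the highest Ttr of its group. FMT-DSS 3 did so for Col6a3 at 3.17 FPKM and FMT-SP 3 for Col6a3 at 1.06 and Col6a6 at 0.0619 FPKM. FMT-CON 1 did so for Col27a1 at 1.84 FPKM, and FMT-SP 1 for Col10a1 at 0.115 FPKM, an estimated 12.7 fragments. The part of tissue makeup or RNA quality in these values was not tested.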

How the results depend on the processing

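Under every alternative run, 0 genes and 0 collagens passed the adjusted threshold in each comparison. The number of genes at an unadjusted p under 0.05 moved more. Over the same 12559 genes it ran from 162 to 1274 in FMT-DSS against FMT-CON (510 as reported). It ran from 105 to 885 in FMT-SP against FMT-DSS (314) and from 14 to 1146 in FMT-SP against FMT-CON (45). Without a filter, 908 of 27978 genes had such a p in FMT-SP against FMT-DSS. The replicate block gave 1274, 885 and 310 in these comparisons and changed no call. With single libraries left out the counts were 243 to 1198, 149 to 798 and 14 to 216. Over all alternatives the median change of the tested collagens was -0.10 to 0.16 in FMT-DSS against FMT-CON, -0.30 to -0.02 in FMT-SP against FMT-DSS and -0.21 to 0.03 in FMT-SP against FMT-CON, and single libraries left out gave the same extremes. Of 1518 changes of single collagens, 484 cannot move, since the block, the filters and a library left out of the third group leave a change as it is. Of the other 1034, 1019 stayed within 1 SE of the reported value, 15 moved further and 131 changed sign, none of them past the adjusted threshold. The cause of these moves was not tested. The 95% interval of a tested collagen reached a median of 0.55 on the log2 scale to either side of its change. Depth was lowest for Col10a1, at an estimated 2.4 fragments at its mean.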
